A study of Mus musculus with 4 samples.

Results

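The binding of Myc and Ptf1a was examined at Myc itself and at Ncl, Npm1, Odc1 and Cad, 4 genes long known as growth targets of Myc. The members were taken by position: every deposited peak with its midpoint in a fixed stretch of 100 kb (110 kb for Npm1) around each of the 5 genes on the mouse build mm9. Of 5464 Myc peaks 7 lay in these windows, and of 17632 Ptf1a peaks 12 did. Chromatin immunoprecipitation with sequencing (ChIP-seq), which finds the DNA a factor is bound to, had been made from pancreas of Ela1-myc mice 8 weeks old. The Myc library came from a pool of 3 mice and the Ptf1a library from 1 mouse, and an input library accompanied each (the same 3 mice for Myc, and 5 mice including the Ptf1a mouse for Ptf1a). Every library carries the Ela1-myc genotype, a line known for a c-Myc transgene driven by the elastase 1 promoter, which is active in acinar cells, and no group without the transgene was analysed here. The inputs were not analysed here either. Peak lists hold no expression, so the labelled tissue could not be checked against markers. With 1 library per factor no value below has a replicate error and no test between groups was possible.

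Myc, a transcription factor with a helix-loop-helix fold, binds DNA together with Max, most often at the letters CACGTG (the E-box) and close variants of them, and raises the expression of genes for ribosome making, nucleotide and polyamine synthesis and cell growth. Ptf1a belongs to the same structural family, binds E-boxes with a common partner and an RBPJ-type protein, and drives the digestive enzyme genes of acinar cells, which are largely non-dividing and devoted to secretion. Ncl (nucleolin) and Npm1 (nucleophosmin) are abundant nucleolar proteins that act in ribosome assembly. Odc1 (ornithine decarboxylase) makes the first polyamine, and Cad is the enzyme that carries out the opening steps of pyrimidine synthesis.

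In these windows the factors were found apart. The Myc, Ncl and Npm1 windows held Myc peaks and no Ptf1a peak, the Cad window held Ptf1a peaks and no Myc peak, and the Odc1 window held both, with no overlap. None of the 7 Myc peaks overlapped a Ptf1a peak by even 1 bp, where 41.4% of the whole Myc list did. None of the 12 Ptf1a peaks overlapped a Myc peak, where 13.4% of the whole Ptf1a list did. For Myc, 0 of 7 allows a share of up to 42.9% by the limit of 3 counts and of up to 35.4% by the 95% Wilson interval, so the share of the list lies between these limits. For Ptf1a, 0 of 12 allows up to 25% and 24.2% by the same rules, both above the share of the list. The limits cover counting error only, and peaks of 1 window share their neighbourhood and are not independent. Myc peaks lay in 4 of the 5 windows, against 14.2% of all 100 kb stretches of the assembled chromosomes, and Ptf1a peaks in 2 of the 5, against 29.8% of stretches. These shares are a description: the windows were laid around known genes, and the stretches were tiled over the chromosomes without regard to genes.

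**Figure D1:**
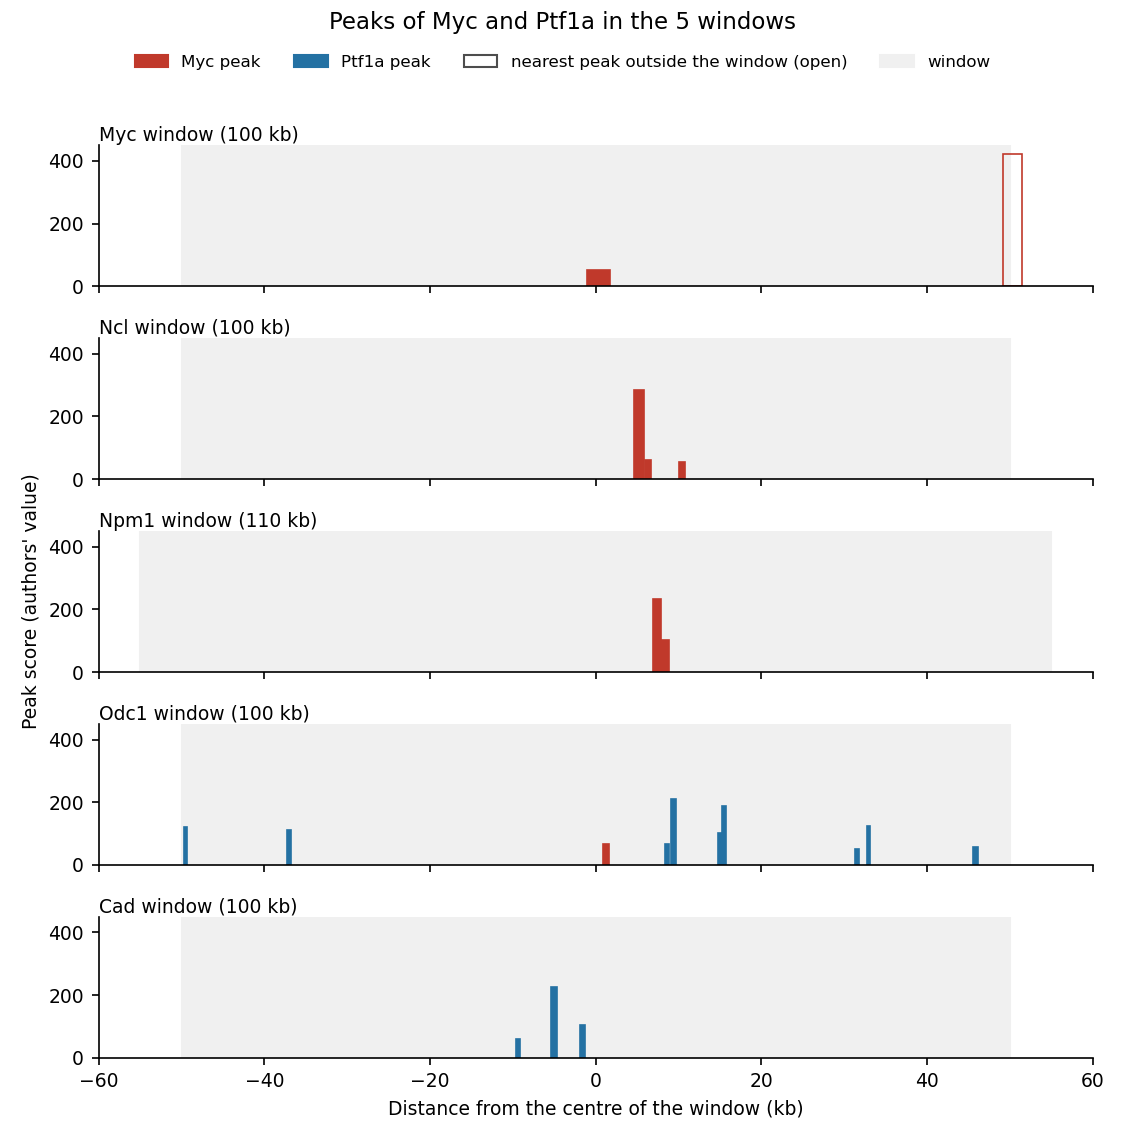
Each panel is 1 window, with the distance from its centre in kb on the x axis and the score of each peak, the authors' value, on the y axis. Filled bars are Myc peaks (red) and Ptf1a peaks (blue) inside the window, drawn at their width (very narrow ones slightly widened). An open bar is a nearest peak outside the window, drawn only where it falls within the x axis. Only the Myc peak just past the Myc window does so, and the other nearest peaks lie beyond the axis. No red and blue bars overlap, and the open Myc bar at the edge of the Myc window reaches a score of 421.17.

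The Myc gene's own window held 1 Myc peak, at chr15:61818898-61821717. It was among the weakest of the list and among the widest. Its score was 52.7, where 8.49% of Myc peaks score as low or lower and the lowest score is 50.0. Its width was 2820 bp, 3.38 times the median Myc peak of 834 bp, and 99.9% of Myc peaks were as narrow or narrower. Only 4 other Myc peaks were as wide, and their scores ran from 75.8 to 2073.91. Among the 1421 Myc peaks with a score under 60 it was the widest, and the next was 1731 bp. The 327 Myc peaks with a score within 1 of it, itself included, were 684 bp wide at the median, with quartiles of 618 and 772.5 bp. These comparisons were chosen after the peak had been seen. Chromatin from the c-Myc transgene and from the endogenous gene cannot be told apart in a peak list, and whether this peak depends on the transgene was not tested.

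No Ptf1a peak lay in the Myc window. The nearest, at chr15:61907910-61908546, had its midpoint 38.2 kb past the window's end and 87.9 kb from the Myc peak. It was a high one, with a score of 682.42 at rank 1419 of 17632. On the other side the nearest Ptf1a peak was 837.45 kb before the window. Of 2449 stretches of 100 kb with exactly 1 Myc peak, 606 (24.7%) likewise held no Ptf1a peak. Among 1190 stretches with 2 or more Myc peaks, 115 (9.66%) held none. The Myc window counts 2 when a peak with at least 1 bp inside it is admitted.

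The edge of the Myc window mattered, since a much stronger Myc peak stood just past it. At chr15:61869191-61871458, with its midpoint 324.5 bp beyond the window's end, this peak scored 421.17, rank 24 of 5464. It was 2268 bp wide, and 99.7% of Myc peaks were as narrow or narrower. It overlapped no Ptf1a peak, and the nearest was 37.9 kb away. On the build GRCm38.p6 the gene listed next after Myc is Pvt1, a long noncoding RNA gene. Gene positions on mm9 were not used here, so this peak is given by position only. The same limit holds for every peak below: a window is named for its gene, and the peaks in it may belong to a neighbour.

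Ncl had the strongest Myc peak of the 5 windows and the largest number. The peak at chr1:88254644-88255810 scored 285.1, which is rank 86 of 5464 and places it in the top 1.57% of the Myc list. Its width was 1167 bp, and 89.6% of Myc peaks were as narrow or narrower. A weaker Myc peak followed after a gap of 160 bp, at chr1:88255971-88256697 (score 62.7, width 727 bp). The last stood 3326 bp further on, at chr1:88260024-88260767 (score 55.3, width 744 bp), so that the 3 peaks spanned a stretch of 6124 bp, gaps included. The leading peak was thus followed by 2 that lay below the list's median score of 75.2.

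No Ptf1a peak lay in the Ncl window. The nearest to the group of Myc peaks was 69.0 to 74.2 kb away, a distance that about 89.2 to 90.2% of Myc peaks do not exceed. It was a weak one, at chr1:88329219-88329542 (score 52.55). Stretches of 100 kb with 3 or more Myc peaks made up 1.59% of all stretches, and of these 406 stretches 19 (4.68%) held no Ptf1a peak. On GRCm38.p6 the protein-coding neighbours of Ncl are B3gnt7 and Nmur1. The small nucleolar RNA genes Snora75 and Snord82 are among those listed next after it, and whether they lie within Ncl or outside it was not read.

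The window of Npm1, the other nucleolar gene, held the next highest Myc score inside the windows and the greatest distance to Ptf1a. Its 2 Myc peaks were separated by 3 bp. The first, at chr11:33061906-33062874, scored 234.24 (rank 167 of 5464, the top 3.06%) and was 969 bp wide. The other, at chr11:33062878-33063892, scored 102 (rank 1506) and was 1015 bp wide. Both were thus above the median of their list in score and width, and together they covered nearly all of a stretch of 1987 bp.

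Peaks this close to each other were uncommon in the Myc list. A gap of at most 200 bp to the next Myc peak was found for 164 of 5464 peaks (3.0%), and for 4 of the 7 in the windows, a pair each at Ncl and Npm1. A gap of at most 10 bp was found for 14 (0.256%), among them both peaks at Npm1. These limits were set after the gaps had been seen. The nearest Ptf1a midpoint was 429.73 kb from the first peak and 430.73 kb from the other, and 99.3% of Myc peaks were as near or nearer to a Ptf1a peak. Of 1206 stretches of 110 kb with at least 2 Myc peaks, 108 (8.96%) held no Ptf1a peak. The nearest Ptf1a peak on the left of the Npm1 window, at chr11:32632361-32632957 (score 612.84), did overlap a Myc peak. Fgf18 and Tlx3 are the protein-coding neighbours of Npm1 on GRCm38.p6.

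**Figure D2:**
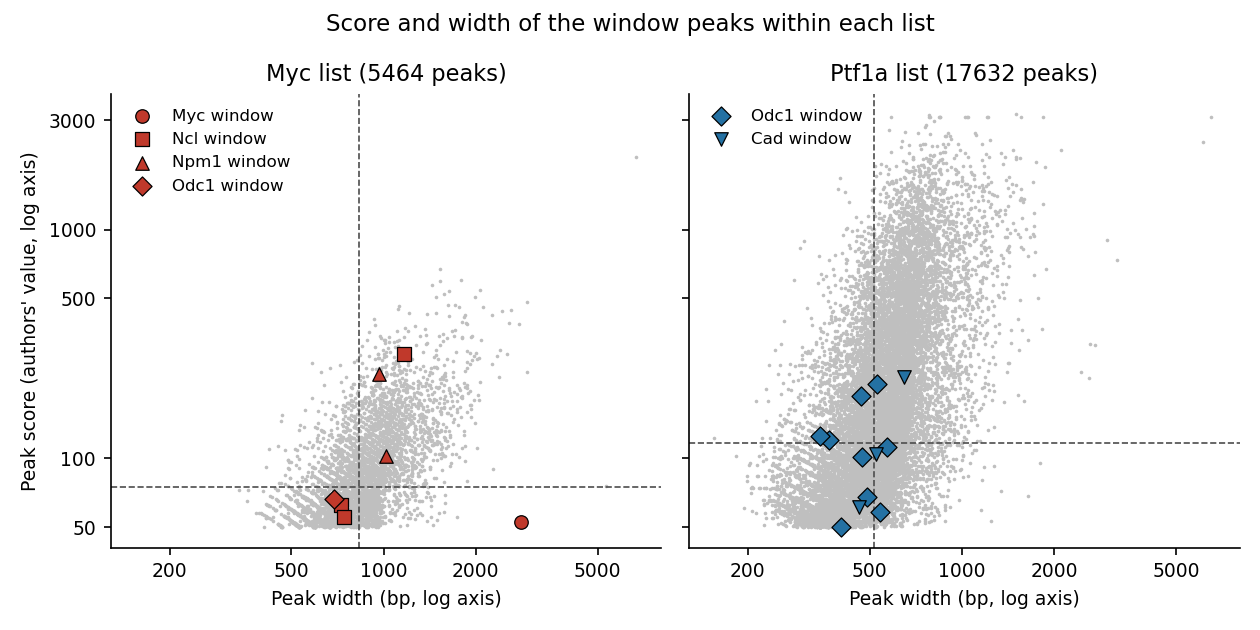
Every peak of the Myc list (left) and of the Ptf1a list (right) is a grey point, with its width in bp on the x axis and its score on the y axis, both on log axes. Coloured symbols mark the window peaks and dashed lines the medians of each list. The leading Ncl and Npm1 peaks stand high in the Myc list at 285.1 and 234.24. The Myc window's peak lies at the lower right, with a width of 2820 bp and a score of 52.7.

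Odc1 was the window with peaks of both factors. It held 1 Myc peak, at chr12:17550893-17551580, with its midpoint 1.24 kb from the window's centre. This peak was weak, with a score of 66.4 (rank 3352 of 5464), and narrow, with a width of 688 bp that 22.8% of Myc peaks do not exceed. Around it stood 9 Ptf1a peaks, a number that only 117 of 25585 stretches of 100 kb (0.457%) reached or passed. The Ptf1a peak nearest to the Myc peak was 7.37 kb away between midpoints, at chr12:17558366-17558855 (score 67.8).

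The Ptf1a peaks at Odc1 were spread over 95.8 kb and fell into small groups. Before the Myc peak stood 2, at chr12:17500322-17500690 (score 120.33) and chr12:17512690-17513257 (score 111.68). The first of these lay at -49.5 kb from the window's centre, close to its edge. After the Myc peak came a pair with 275 bp between them, whose other peak, at chr12:17559131-17559660, had the highest Ptf1a score of the window (211.82, rank 5372 of 17632).

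A further pair, 12 bp apart, followed at chr12:17564719-17565190 (score 100.88) and chr12:17565203-17565670 (score 186.47). The next 2 were at chr12:17581332-17581733 (score 50.3) and chr12:17582793-17583137 (score 124.94). The last was at chr12:17595555-17596093 (score 58.5). None of the 9 was among the strong sites of its list: 4 lay above the list's median score of 116 and 5 below it.

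Such a crowd of Ptf1a peaks usually came with a shared site. Of the 117 stretches with 9 or more Ptf1a peaks, 109 held a Myc peak as well. In 13 of those 109 (11.9%) no peak was shared, as in the Odc1 window. A shared site did stand 43.4 kb past the end of that window, at a Myc peak with a score of 117.59. Over all 2918 stretches with peaks of both factors, 39.5% had no shared peak. On GRCm38.p6 the protein-coding neighbours of Odc1 are Nol10 and Hpcal1. Which of these genes the Ptf1a peaks lie nearest to was not tested.

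Cad was the only one of the 5 windows without a Myc peak. It held 3 Ptf1a peaks within 8.31 kb, at chr5:31350372-31350832 (score 61.05), chr5:31354621-31355268 (score 227.33) and chr5:31358159-31358683 (score 104.01). The middle one was the highest Ptf1a score in any of the windows, at rank 5071 of 17632, and its 648 bp were wider than or equal to 79.6% of the list. The other 2 lay below the list's median score.

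The Myc peak nearest to Cad was outside the window by 85.5 kb, at chr5:31494974-31495941 (score 95.7), and it overlapped a Ptf1a peak. From the 3 Ptf1a peaks the nearest Myc midpoint was 137.04 to 144.86 kb away, against a median of 42.2 kb for the Ptf1a list. Of 939 stretches with exactly 3 Ptf1a peaks, 459 (48.9%) held no Myc peak. The depth of the Myc library is unknown, so a site at Cad may have been missed, and the lack of a peak does not show that Myc was absent. Atraid and Slc30a3 stand beside Cad on GRCm38.p6.

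**Figure D3:**
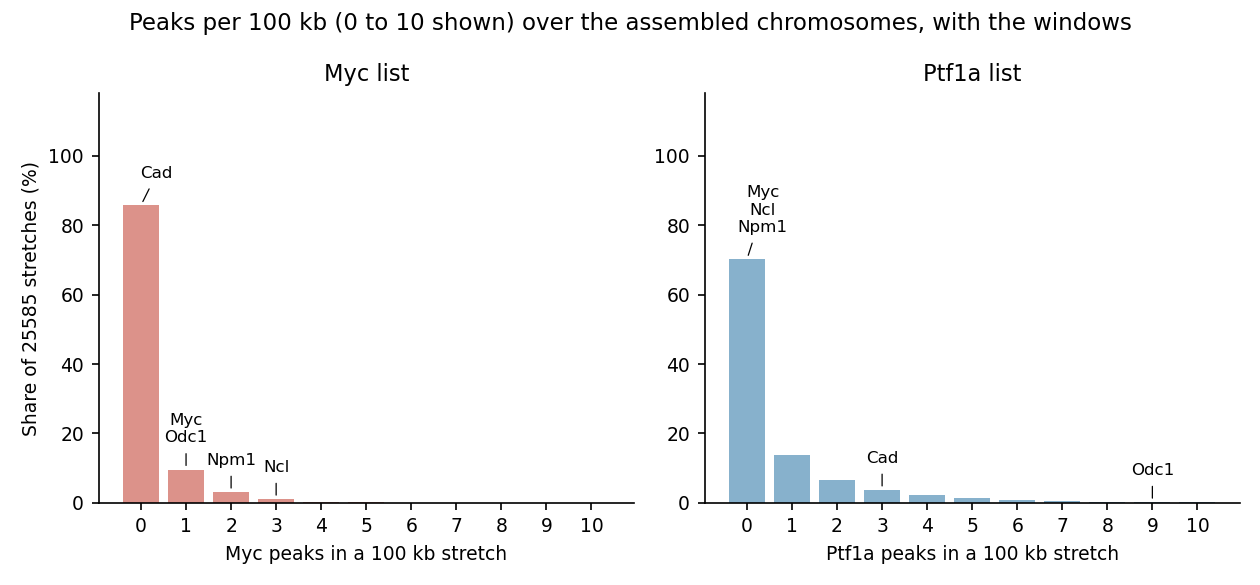
Bars give the share of 25585 stretches of 100 kb, in percent, with each number of Myc peaks (left) or Ptf1a peaks (right), for stretches with up to 10. Gene names mark the number found in each window, of which that of Npm1 is 110 kb long. Ncl stands at 3 Myc peaks and Odc1 at 9 Ptf1a peaks, both numbers that few stretches reach.

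The 3 Myc peaks in the windows with a score of 100 or more were in those of Ncl and Npm1, with 1 and 2 of them, and the Odc1 and Cad windows held none. The other 2 Myc peaks at Ncl scored 62.7 and 55.3, and a Myc peak with a score of 117.59 stood 43.4 kb past the Odc1 window. At Myc there was none inside the window, and the peak with a score of 421.17 stood just past its edge. In the whole list 28.7% of Myc peaks scored 100 or more. The median score over the 7 was 66.4, below the 75.2 of the list, but with the windows widened by 50 kb on both sides it was 102 over 13 Myc peaks, above the list. For Ptf1a the median over the 12 was 107.84, against 116.12 for the list, and 8 of the 12 reached 100, against 56.6% of the list. Scores were compared within a list only, since the antibody, the number of mice and an unknown depth differ between lists.

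The windows also differed in the distance between the factors. The Myc peaks lay 7.37 kb (Odc1), 69.0 to 74.2 kb (Ncl), 87.9 kb (Myc) and 429.73 to 430.73 kb (Npm1) from the nearest Ptf1a midpoint. The median over the 7 was 74.2 kb. For the whole Myc list it was 2.53 kb, and for the 3203 Myc peaks with no overlap it was 18.9 kb (quartiles 5.46 and 49.9 kb). Thus 6 of the 7 were farther from Ptf1a than the upper quartile of unshared Myc peaks. These were 3 at Ncl, 2 at Npm1 and 1 at Myc. Neighbouring peaks of a window have nearly the same distance, so they are not separate observations. For the Ptf1a peaks the median distance to Myc was 35.0 kb over the 12, against 42.2 kb for the list.

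**Figure D4:**
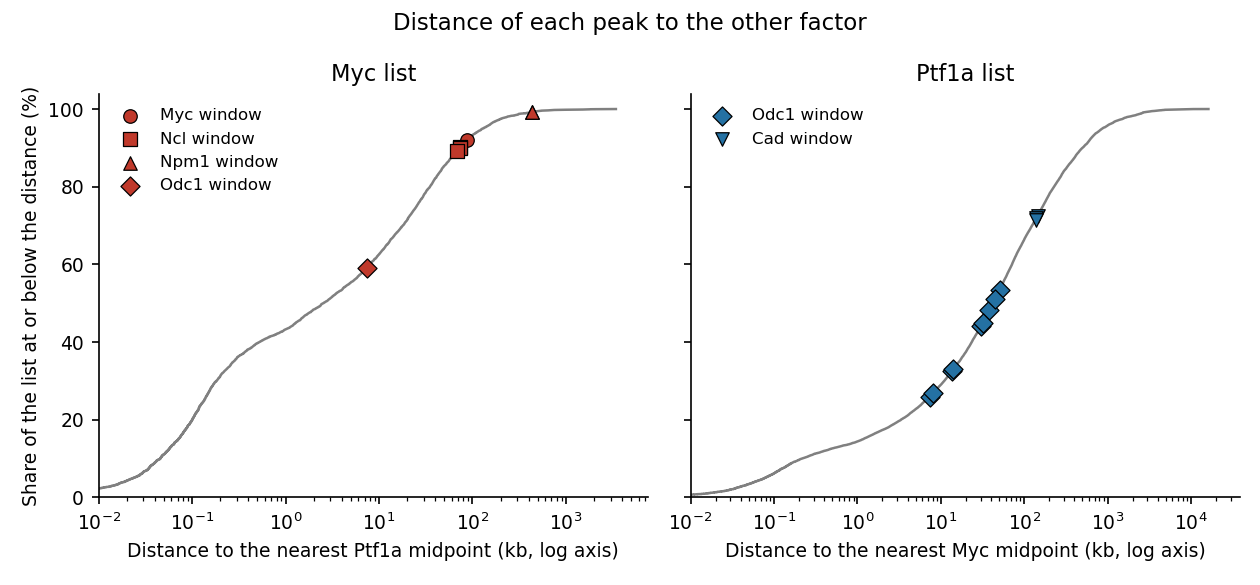
Curves give the share of each list, in percent, whose nearest peak of the other factor is at or within the distance on the x axis (kb between midpoints, log axis), for Myc peaks (left) and Ptf1a peaks (right). Symbols mark the window peaks on the curve. The Npm1 peaks sit near the top of the Myc curve at about 99.3%, and the Odc1 peaks of Ptf1a lie between 7.37 and 50.7 kb.

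To show the DNA before these genes, the promoter stretches of Ncl, Odc1 and Cad were read from RefSeq on GRCm38.p6. That table held 3 of the 5 members and not Myc or Npm1. These are the 250 bases before the start of each gene, 5′ to 3′ on the gene's strand, and where the mm9 peaks fall on them was not determined. Capitals mark CANNTG (any E-box) and CACGCG or CACGAG on either strand, which are E-box variants known to be bound by Myc with Max.
Ncl: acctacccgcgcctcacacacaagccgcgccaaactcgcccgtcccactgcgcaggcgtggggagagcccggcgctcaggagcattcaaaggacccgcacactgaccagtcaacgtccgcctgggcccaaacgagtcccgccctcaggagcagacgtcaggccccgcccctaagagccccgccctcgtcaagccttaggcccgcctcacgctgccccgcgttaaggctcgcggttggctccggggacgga
Odc1: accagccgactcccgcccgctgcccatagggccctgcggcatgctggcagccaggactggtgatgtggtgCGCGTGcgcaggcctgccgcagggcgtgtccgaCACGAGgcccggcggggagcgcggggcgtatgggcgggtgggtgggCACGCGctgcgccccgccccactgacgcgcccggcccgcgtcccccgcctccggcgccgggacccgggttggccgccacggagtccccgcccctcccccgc
Cad: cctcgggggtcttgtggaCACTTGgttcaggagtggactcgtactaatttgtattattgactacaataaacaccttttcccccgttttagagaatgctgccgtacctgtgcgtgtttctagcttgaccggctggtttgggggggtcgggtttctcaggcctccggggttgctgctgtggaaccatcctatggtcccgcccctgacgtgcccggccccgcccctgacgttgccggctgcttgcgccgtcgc

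None of the 3 held CACGTG in the window searched, which runs from 250 bases before to 50 after the start. Bases outside that window were not read, so whether these genes hold CACGTG further downstream or upstream was not tested. Among all 32851 RefSeq promoters at hand, 7.15% held it and 72.3% held CANNTG. The Cad promoter held 1 CANNTG match, CACTTG at position -232 from the start, and those of Ncl and Odc1 held none. Odc1 held CACGCG or its reverse complement at -180 and -101 and CACGAG at -147. CACGCG was present in 9.27% of all promoters and CACGAG in 6.47%. Ncl held CACGAG at position 29 after the start, beyond the stretch printed. The variants were added after the sequences had been read. They are rich in G and C, and these promoters are too: the share of G and C was 69.3% for Ncl, 78.0% for Odc1 and 59.7% for Cad, against a median of 52.7%. Among the 3443 promoters with at least the G and C share of Ncl, 29.9% held CACGCG and 10.4% CACGAG.

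Lists of genes of the same pathways were read the same way, for sequence alone, since their peaks could not be placed. The lists include the members: Ncl is counted again under the nucleolus, Odc1 under polyamines and Cad under nucleotide synthesis, each without CACGTG. Among genes of the nucleolus and ribosome making 2 of 13 held CACGTG (Nop2, an RNA methyltransferase of the nucleolus, and Wdr43). Of the nucleotide synthesis genes 3 of 11 did, Atic and Paics of the purine pathway and Impdh2 of guanine nucleotide synthesis. Among polyamine genes it was 1 of 4, Sms, which makes spermine. In the Myc network 4 of 11 held it: Max, the partner of Myc, and Mlx, Mnt and Mxd4 of the same family. None of 13 genes of the PTF1 complex and of acinar cells did. By gene, CACGTG was held by 8.09% of the 27025 genes at hand. These counts describe sequence only and were not tested.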

How the data were processed

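The deposited files are 1 peak list per ChIP library, and the authors' score of each peak is the value used. MACS 1.4.1, BWA 0.5.9-r16, FastQC 0.9.4 and CASAVA 1.8 are named with the build mm9, per the submitters' processing notes. For none of them do the sources used here give the role or settings, nor the peak threshold, the use made of the inputs or the scale of the score. Fixation was in 1% formaldehyde for 20 min and fragments were 300 to 500 bp long, per the labels' protocols, which limits how finely a site is placed. The lists hold no read counts, so depth is unknown.

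Peaks were assigned to a window by midpoint and called shared at an overlap of at least 1 bp. Ranks are by score within a list. Distances are between midpoints, and gaps between edges. The background was stretches of 100 kb (110 kb for Npm1) tiled from position 1 on 20 assembled chromosomes, between the first and the last peak. The limit that a count of 0 allows is 3 counts of the total. Positions are counted from 1. All members, and every peak in a window, are named. Members and gene lists were chosen with earlier results of these data known. Promoter sequences come from RefSeq on GRCm38.p6, and coordinates were not converted. Overlap counting was tested on copies of Ptf1a peaks, left in place or moved beyond every peak, and on sampled Myc peaks against a direct pairwise count. Alternatives were other overlap definitions, a score of 100 or more, and narrower, wider or shifted windows and stretches. The distance of peaks to gene starts had been planned and was not analysed here, for want of mm9 gene positions. Computations used Python 3.11.15, numpy 2.4.6, pandas 2.3.3, scipy 1.17.1 and matplotlib 3.10.9.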

Additional observations from a re-analysis of the deposited data

How the results depend on the processing

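Of 31 values under the alternatives, 20 stayed within their limit (1.5 times for a count, the 95% interval of the median by order statistics for a median score, the 95% Wilson interval for a share). The count of shared peaks in the windows was 0 in both lists under each of the 5 planned definitions. These could give no other count, so they say nothing on how stable it is. The smallest distance between midpoints of the 2 lists was 7.37 kb, and the peak added by the 1 bp rule was 37.9 kb from Ptf1a. With the windows widened by 50 kb on both sides, an alternative chosen after seeing the data for the shared peaks, 1 of 13 Myc and 2 of 21 Ptf1a peaks were shared, all at the far end of Odc1. The same widening took the median Myc score from 66.4 to 102, from below to above the 75.2 of the list. The value of 102 stayed within the limit for a median score. At a score of at least 100 the windows held 3 Myc peaks, and in their middle 50 kb 7 Ptf1a peaks. Admitting a peak with 1 bp in a window added the strong Myc peak at the edge of the Myc window. The share of stretches with a Myc peak was 43.6% among stretches with a peak of either list and 5.30% with a score of 100 or more. For Ptf1a these shares were 91.4% and 21.1%. CACGTG was found in 6.02% of promoters when only bases before the start were read. No replicate could be left out, and the distance of peaks to gene starts could not be computed without mm9 gene positions. No paired analysis was possible because there is a single library for Myc and for Ptf1a. The depth of both libraries is unknown, so sites may have gone undetected in either.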

Other observations

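Just beyond the windows, the flanks at Ncl and Odc1 differed from each other. Past the Ncl window, within 50 kb of its end, stood 3 Myc peaks and 3 Ptf1a peaks, and none of the 6 was shared. The Myc peaks were at chr1:88331706-88332647 (score 88.3), chr1:88338015-88339694 (score 169.95) and chr1:88346469-88347247 (score 117.52). The Ptf1a peaks were at chr1:88329219-88329542 (score 52.55), chr1:88331031-88331369 (score 79.5) and chr1:88340291-88340673 (score 125.02). The first of these Myc peaks had a Ptf1a midpoint 0.98 kb away. Past the Odc1 window a Myc peak at chr12:17642604-17644124 (score 117.59, width 1521 bp) overlapped 2 Ptf1a peaks. It covered part of that at chr12:17642443-17642764 (score 61.7) and the whole of that at chr12:17642920-17643876 (score 1410.58). The latter, at rank 295 of 17632, scored far above each of the 9 Ptf1a peaks inside the Odc1 window. Past the Myc window a further Myc peak stood at chr15:61875259-61875945 (score 66.5).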
